A study of Rattus norvegicus with 12 samples.

Results

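Cytochromes P450 are heme enzymes that use oxygen and reducing equivalents to oxidise drugs, solvents, fatty acids and steroids. The 9 genes described here, Cyp2c11, Cyp2c23, Cyp2e1, Cyp4a1, Cyp1b1, Cyp7b1, Cyp17a1, Cyp2f4 and Cyp27a1, were followed in the kidney cortex of rats given the cephalosporin antibiotic cephaloridine (CER). They were found by their names or accessions on a whole-genome Agilent array and stood on 10 probes, among 41012 probes for 35529 genes or unmatched transcripts. The array file wrote Cyp2c11 as Cyp2c, Cyp4a1 as Cyp4a22 and Cyp2f4 as Cyp2f2, and these were matched by accession. The labels give 4 groups of 3 male Fisher 344 rats, 8 weeks old, of no stated genetic modification: control (saline, 0 mg/kg), low dose, middle dose and high dose, each given once into a vein, with the cortex taken after 24 h and 1 array per animal. The labels state doses of 150, 300 and 600 mg/kg, and these were matched to low, middle and high in rising order. The stated purpose was to profile subtoxic and toxic doses.

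Most P450s of this set need electrons from the reductase Por in the endoplasmic reticulum, and the mitochondrial ones, such as Cyp27a1, receive them through Fdxr and Fdx1. In the kidney the family is concentrated in the proximal tubule, the segment that takes up cephaloridine and is damaged by it. There, P450s of the Cyp2c and Cyp4a families turn arachidonic acid into epoxides and hydroxy acids that act on vessels and salt transport. In the whole cortex, fewer cells of a type and less RNA per cell cannot be told apart.

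The brightest probe of each of the 9 genes was well above background on all 12 arrays, so all 9 passed the filter on dim probes, which kept 20760 genes. Cyp1b1 had a second probe that was well above background on only 2 of 12 arrays and was not tested. Across the arrays the 75th percentile of the signal, to which each array was scaled, lay between 677 and 774, between 59.2% and 63.2% of probes passed the scanner's background flag, and 0 spots were saturated. Slide 1 carried the 3 control arrays and low 1, slide 2 low 2 and middle 1, slide 3 low 3 and middle 2, and slide 4 middle 3 and the 3 high arrays. No slide held both a control and a high-dose animal, so for 600 mg/kg against control the dose and the slide cannot be told apart without the arrays that link the slides. Values with slide as a block are therefore given beside the results. Against control they add the steps measured within slides, the first of which rests on low 1 alone and the last on middle 3 alone. Their standard errors at 600 mg/kg against control had a median of 0.154, against 0.0757 without the block. The labels do not say whether the animals of a group were treated or extracted together, so p-values measure the spread between these arrays.

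The kidney label was borne out by the markers of the proximal tubule, all 15 of which were well above background on every array. Their summed signal was 909.6 to 937.8 times the 75th percentile at 600 mg/kg, against 1160 to 1197 times in control, and 11 of the 15 fell while 0 rose, where 16.8% of all tested genes were called lower; with slide as a block 2 of the 15 were called. Macrophage markers moved the other way, with sums of 42.2 to 47.0 at 600 mg/kg and 31.5 to 37.1 in control. Of the 9 tested, 7 rose and 0 fell, where 18.0% of all tested genes were called higher. With slide as a block 1 of the 9 was called. Endothelium markers summed to 45.0 to 47.3 at 600 mg/kg and 56.8 to 59.6 in control. Of the 8 tested, 5 fell and 0 rose, and 0 were called with slide as a block. Lyz2 was the brightest of the macrophage markers and Kdr of the endothelium markers, so they weigh most in these sums. The part of these shifts in the P450 results was not tested.

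The promoters of 4 of these genes are shown because their transcripts gave the largest fall (Cyp2c11), falls seen at the highest dose (Cyp2c23 and Cyp2e1) and the largest rise (Cyp1b1) of the set. The sequences are from RefSeq, build GRCr8, 250 bases before to 50 after the annotated start, 5′ to 3′ on the gene's strand. Of the 9 genes, 6 were in the promoter table, and Cyp4a1, Cyp7b1 and Cyp17a1 were not. Capitals mark the letters TATAAA, the classical TATA box, or TNGCGTG, the core of the dioxin response element bound by the aryl hydrocarbon receptor, searched on both strands. The Cyp1b1 window lies inside the annotated span of the gene.
Cyp2c11 (chr1:246174966-246175265, plus strand): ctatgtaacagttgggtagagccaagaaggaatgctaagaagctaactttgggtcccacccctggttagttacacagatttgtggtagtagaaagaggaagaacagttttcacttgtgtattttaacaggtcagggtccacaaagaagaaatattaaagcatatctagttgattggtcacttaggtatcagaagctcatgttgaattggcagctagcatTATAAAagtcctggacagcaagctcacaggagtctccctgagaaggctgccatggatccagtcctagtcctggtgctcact
Cyp2c23 (chr1:252863018-252863317, minus strand): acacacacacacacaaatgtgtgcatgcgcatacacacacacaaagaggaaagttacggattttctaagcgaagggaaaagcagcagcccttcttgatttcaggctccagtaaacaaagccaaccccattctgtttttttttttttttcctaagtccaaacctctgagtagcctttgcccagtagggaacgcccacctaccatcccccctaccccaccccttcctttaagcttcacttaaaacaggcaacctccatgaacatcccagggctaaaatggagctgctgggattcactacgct
Cyp2e1 (chr1:205269717-205270016, plus strand): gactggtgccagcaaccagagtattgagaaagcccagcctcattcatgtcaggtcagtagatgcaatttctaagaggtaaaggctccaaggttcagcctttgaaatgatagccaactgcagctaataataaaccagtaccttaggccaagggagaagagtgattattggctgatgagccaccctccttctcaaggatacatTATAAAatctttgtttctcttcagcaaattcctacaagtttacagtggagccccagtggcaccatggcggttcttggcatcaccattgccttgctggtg
Cyp1b1 (chr6:21094315-21094614, plus strand): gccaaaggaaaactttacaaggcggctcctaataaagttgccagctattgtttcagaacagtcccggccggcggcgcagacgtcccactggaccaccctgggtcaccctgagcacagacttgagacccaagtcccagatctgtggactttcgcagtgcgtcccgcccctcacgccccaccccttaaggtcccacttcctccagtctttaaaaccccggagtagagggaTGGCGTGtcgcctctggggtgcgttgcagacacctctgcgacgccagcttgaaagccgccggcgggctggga

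TATAAA stood 31 to 26 bases before the start in Cyp2c11 and 49 to 44 bases before it in Cyp2e1, and in none of the other 4 promoters. Among 33469 rat promoters of the same length, 14.2% held these letters; this motif was added after the promoters had been seen. The dioxin response core stood once, as TGGCGTG, 22 to 16 bases before the start of Cyp1b1, in 1 of 6 promoters against 4.89% of all. The direct repeat to which the fatty acid receptor PPARA binds with its partner was in 0 of 6 promoters and in 0.0538% of all. The promoter of Cyp4a1 was not among the 6, and with a motif this rare its absence from them shows nothing about these genes. The Cyp1b1 window held 19 CG dinucleotides and was 60.7% G and C, whereas that of Cyp2c11 held 0 and was 43.7% G and C; the medians over all promoters were 7 and 51.7%. Cyp2c11, Cyp2c23, Cyp2e1, Cyp17a1 and Cyp2f4 all lie on chromosome 1, so 5 of the 9 genes share a chromosome. These matches are descriptions of letters, not of bound sites.

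At 600 mg/kg against control, 8 of the 9 genes changed. Cyp2c11, Cyp2c23, Cyp2e1 and Cyp4a1 fell, Cyp1b1, Cyp7b1, Cyp17a1 and Cyp27a1 rose, and Cyp2f4 did not pass the test. Calls are limma tests with an adjusted p (Benjamini-Hochberg, over all 20760 genes tested) under 0.05, and 34.8% of those genes were called in this comparison (18.0% higher and 16.8% lower). The 3 high-dose animals did not overlap the 3 controls for 8 of the 9 genes, against 56.1% of all tested genes. The median size of the log2 difference was 0.52 for the 9 genes and 0.16 for all genes tested. The 9 genes were chosen with earlier results of these data known. Their counts and sizes beside those of all genes, here and below, are therefore descriptions and not tests. Fitted with slide as a block, 2 of the 9 were called, Cyp2c11 and Cyp7b1, against 2.81% of all genes.

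**Figure D1:**
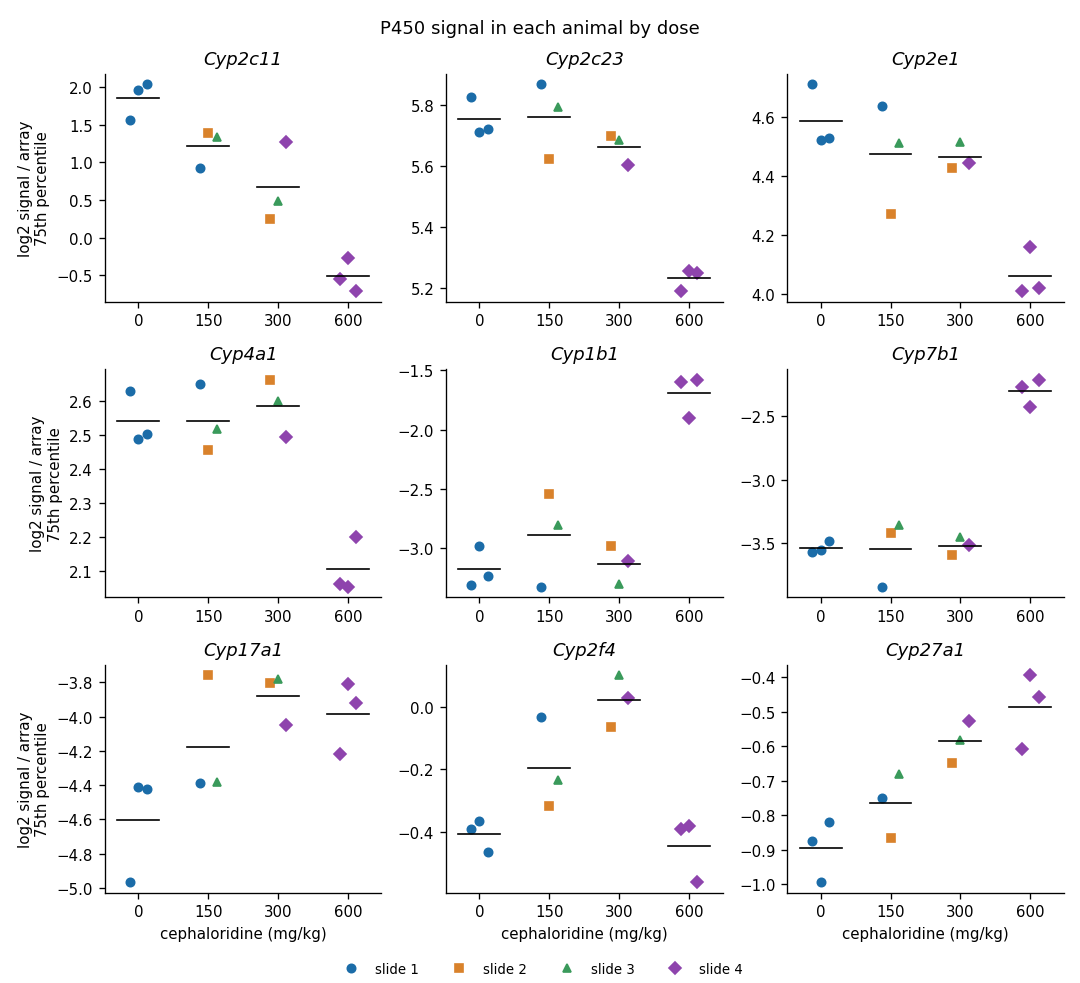
Log2 signal of each gene relative to the 75th percentile of its array, for each of the 12 animals (points, shape and colour by slide) at 0, 150, 300 and 600 mg/kg, with the mean of each group as a bar. Cyp2c11 steps down with dose, Cyp2c23, Cyp2e1 and Cyp4a1 are lowest at 600 mg/kg, Cyp2f4 is highest at 300 mg/kg, and Cyp1b1 and Cyp7b1 rise at 600 mg/kg.

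Cyp2c11 encodes a steroid and drug hydroxylase that in rat liver is made in males and follows the male pattern of growth hormone. Its signal, in multiples of the 75th percentile of the array, was 2.96, 3.89 and 4.11 in the 3 control animals, 1.90, 2.61 and 2.53 at 150 mg/kg, 1.19, 1.41 and 2.41 at 300 mg/kg, and 0.682, 0.826 and 0.611 at 600 mg/kg. Every dosed animal was below every control, and the animals at 600 mg/kg were below all the others. Middle 3 lay above its 2 group mates and overlapped the range at 150 mg/kg. At 600 mg/kg Cyp2c11 averaged -0.51 ± 0.22 on the log2 scale, against 1.86 ± 0.25 in control (SD, n = 3 each), a log2 difference of -2.37 (standard error 0.248, adjusted p = 0.000127), which left 19.4% of the control signal. At 300 mg/kg it fell by 1.19 (standard error 0.248, adjusted p = 0.0166), and at 150 mg/kg the log2 difference was -0.64 (standard error 0.248, adjusted p = 0.425, unadjusted p = 0.0272).

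The fall of Cyp2c11 was seen on every slide that carried 2 doses. Low 1 differed from the mean of the 3 controls by -0.93 on the log2 scale on slide 1, middle 1 differed from low 2 by -1.14 on slide 2, middle 2 from low 3 by -0.85 on slide 3, and the 3 high animals from middle 3 by -1.78 on slide 4. Over all tested genes the medians of these 4 within-slide differences lay between -0.03 and 0.03. The slide-blocked difference at 600 mg/kg against control was therefore larger, -3.71 (adjusted p = 0.0125), and that at 300 mg/kg against control was -1.93 (adjusted p = 0.0677). The call at 300 mg/kg against control was also lost without control 2 (log2 difference -1.14, adjusted p = 0.0645). The array file names this probe only as Cyp2c, a family of related genes, and cross-hybridisation could not be checked. The other rat genes of that family on the array, Cyp2c6v1, Cyp2c7, Cyp2c12, Cyp2c13, Cyp2c22 and Cyp2c55, were well above background on 0 or 1 of 12 arrays, while Cyp2c23, also of that family, was so on 12 of 12. Of the 12 liver markers, Apoa1, Apob, Fga, Fgb, Tf and Hpx were well above background on 12 of 12 arrays, Alb on 7, Apoa2 on 4, Ahsg on 2, and Ttr, Serpina1 and Cps1 on 0. The list summed to 8.30 to 11.7 times the 75th percentile in control and 9.39 to 10.2 times at 150 mg/kg. It summed to 9.41 to 10.5 times at 300 mg/kg and 12.5 to 15.9 times at 600 mg/kg. Tf, Fga and Fgb were its brightest genes. At 600 mg/kg against control, 4 of the 7 tested rose and 0 fell, where 18.0% of all tested genes were called higher. With slide as a block 2 of the 7 were called, Fgb and Apob, against 2.81% of all genes. Fgb rose by 1.5 (adjusted p = 3.65e-05), Apob by 0.57 (adjusted p = 0.016) and Fga by 0.56 (adjusted p = 0.00461). The slide-blocked value of Fga was 0.33 (adjusted p = 0.504). Apoa2 was also called, but it was well above background on 3 high, 0 middle, 1 low and 0 control arrays. It passed the filter through the high-dose group alone, so its place in the count gives no support. Tf and Hpx had log2 differences of 0.06 (adjusted p = 0.836) and 0.04 (adjusted p = 0.868). Apoa1 had one of 0.57 (adjusted p = 0.255), and its slide-blocked value was -1.25 (adjusted p = 0.0792). The part of this list in the Cyp2c11 signal was not tested.

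Cyp2c23 encodes the main arachidonic acid epoxygenase of rat kidney. Its signal was 56.7, 52.4 and 52.7 times the 75th percentile in control, 58.4, 49.2 and 55.4 times at 150 mg/kg, 51.9, 51.4 and 48.5 times at 300 mg/kg, and 36.5, 38.2 and 38.0 times at 600 mg/kg. The 3 high-dose animals lay below all 9 others. The middle-dose animals were also all below the controls, by a narrow margin, and the low-dose animals overlapped both. The log2 difference at 600 mg/kg against control was -0.52 (standard error 0.0644, adjusted p = 0.000328), leaving 69.7% of the control signal. The value at 300 mg/kg against control was -0.09 (adjusted p = 0.369). The slide-blocked difference at 600 mg/kg was -0.27 (adjusted p = 0.262).

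Cyp2e1 encodes the enzyme that oxidises ethanol, acetone and small solvents. Its signal was 26.2, 23.0 and 23.1 times the 75th percentile in control, 24.9, 19.3 and 22.8 times at 150 mg/kg, 21.5, 22.9 and 21.8 times at 300 mg/kg, and 16.1, 17.9 and 16.2 times at 600 mg/kg. Here too the high-dose animals lay below the other 9, with low 2 the next lowest, and the middle-dose animals lay just under the controls. The log2 difference at 600 mg/kg against control was -0.52 (standard error 0.0906, adjusted p = 0.00186), and the slide-blocked value was -0.25 (adjusted p = 0.422). The Cyp2e1 probe was spotted 10 times on each array. The SD over those spots was 0.025 to 0.048 on the log2 scale, and the SD over the 3 animals of a group was 0.107 in control, 0.186 at 150 mg/kg, 0.047 at 300 mg/kg and 0.083 at 600 mg/kg.

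**Figure D2:**
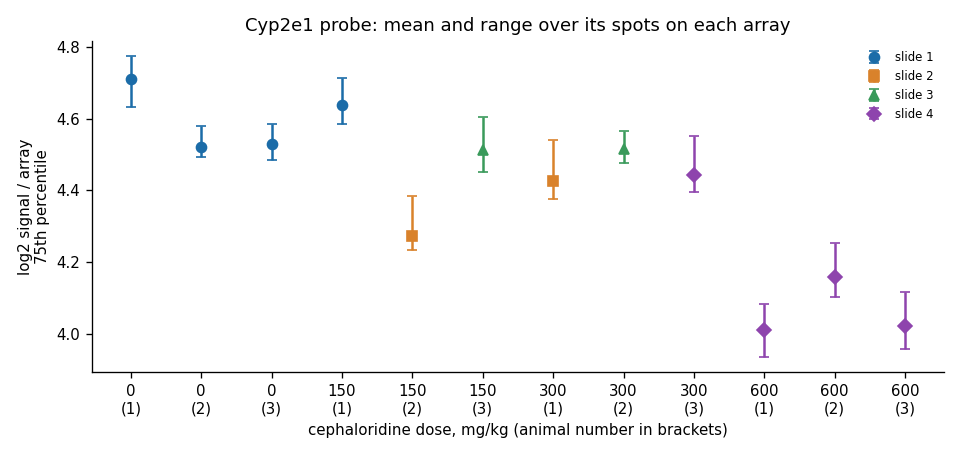
Log2 signal of the Cyp2e1 probe relative to the 75th percentile of the array, as the mean over its 10 spots (point, shape and colour by slide) with bars to the lowest and highest spot, for each animal in order of dose. The bars of the 3 animals at 600 mg/kg lie below 4.27, the mean of low 2, the lowest of the other 9 animals. The bar of high 2, which reaches up to 4.254, overlaps that of low 2, which reaches down to 4.232.

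Cyp4a1 encodes a fatty acid hydroxylase that in rat liver is induced through PPARA. Its signal was 6.19, 5.61 and 5.67 times the 75th percentile in control, 6.28, 5.49 and 5.72 times at 150 mg/kg, 6.33, 6.05 and 5.63 times at 300 mg/kg, and 4.18, 4.15 and 4.60 times at 600 mg/kg. The signal at 150 and 300 mg/kg overlapped control, and the 3 high-dose animals lay below all others. The log2 difference at 600 mg/kg against control was -0.44 (standard error 0.0703, adjusted p = 0.00129), leaving 74.0% of the control signal. Blocking on slide gave -0.13 (adjusted p = 0.634). The related genes Cyp4a3 and Cyp4a8 had log2 differences of 0.03 (adjusted p = 0.738) and 0.06 (adjusted p = 0.481) in the same comparison. The falls of Cyp2c23, Cyp2e1 and Cyp4a1 stood beside those of the proximal tubule markers, whose median log2 difference was -0.44 at 600 mg/kg against control and -0.37 against 300 mg/kg, where 8 of the 15 fell (5 called with slide as a block) and 12.9% of all tested genes were called lower. What part of them these markers account for was not tested. Whether the probe, named Cyp4a22 in the array file, also binds transcripts of these relatives could not be checked.

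Cyp1b1 encodes an enzyme that hydroxylates estrogens and polycyclic hydrocarbons outside the liver and is induced through the aryl hydrocarbon receptor. Its signal was 0.101, 0.126 and 0.106 times the 75th percentile in control, 0.0997, 0.172 and 0.143 times at 150 mg/kg, 0.126, 0.101 and 0.116 times at 300 mg/kg, and 0.330, 0.268 and 0.335 times at 600 mg/kg. The 3 high-dose animals stood above the 9 others, which overlapped. At 600 mg/kg against control Cyp1b1 rose 2.80-fold (log2 difference 1.49, standard error 0.182, adjusted p = 0.000314). The log2 difference was 0.05 at 300 mg/kg (adjusted p = 0.894) and 0.29 at 150 mg/kg (adjusted p = 0.639). The slide-blocked difference was 0.80 (adjusted p = 0.14), since the steps within slides 1, 2 and 3 were -0.15, -0.44 and -0.50 before the step of 1.42 on slide 4.

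Cyp7b1 encodes the hydroxylase that inactivates oxysterols and neurosteroids and feeds the alternative route to bile acids. Its signal was 0.0841, 0.0849 and 0.0895 times the 75th percentile in control, 0.0695, 0.0931 and 0.0972 times at 150 mg/kg, 0.0829, 0.0913 and 0.0872 times at 300 mg/kg, and 0.208, 0.187 and 0.216 times at 600 mg/kg. The group means on the log2 scale were -3.54 in control, -3.54 at 150 mg/kg and -3.52 at 300 mg/kg. At 600 mg/kg it averaged -2.30 and had risen 2.36-fold against control (log2 difference 1.24, standard error 0.112, adjusted p = 5.58e-05). It was also called in the slide-blocked fit, with a log2 difference of 0.78 (adjusted p = 0.0456).

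Cyp17a1 encodes the hydroxylase and lyase that leads from pregnenolone and progesterone to androgens, best known from testis and, outside rodents, adrenal. Its signal was close to background: 0.0320, 0.0470 and 0.0466 times the 75th percentile in control, 0.0477, 0.0739 and 0.0480 times at 150 mg/kg, 0.0717, 0.0727 and 0.0604 times at 300 mg/kg, and 0.0538, 0.0714 and 0.0660 times at 600 mg/kg. All dosed animals were above all controls, control 1 was the lowest of its group, and the 3 dosed groups overlapped. The log2 difference at 600 mg/kg against control was 0.62 (standard error 0.200, adjusted p = 0.0358) and at 300 mg/kg it was 0.72 (standard error 0.200, adjusted p = 0.0412). The first call was lost without control 1 (0.44, adjusted p = 0.127), without high 2 (0.53, adjusted p = 0.109) and without high 3 (0.59, adjusted p = 0.0949). The second was lost whichever of its 6 arrays was left out, with log2 differences of 0.54 to 0.82 and adjusted p of 0.0529 to 0.137. The slide-blocked differences were 0.56 (adjusted p = 0.516) at 600 mg/kg and 0.49 (adjusted p = 0.504) at 300 mg/kg. Both calls were also lost with no filter on dim probes. Of the 10 markers of the adrenal cortex, which lies beside the kidney, Star, Mrap and Scarb1 were well above background on 12 of 12 arrays, Cyp11b2 on 2, Akr1b7 on 1, and Cyp11a1, Cyp11b1, Cyp21a1, Mc2r and Nr5a1 on 0. Scarb1 rose at 600 mg/kg against control (0.29, adjusted p = 0.0115; slide-blocked value 0.52, adjusted p = 0.124). The adrenal list summed to 6.47 to 7.27 times the 75th percentile at 600 mg/kg and 7.01 to 7.43 times in control. Most of this sum was Mrap, with a mean of 2.67 on the log2 scale, against -0.84 for Scarb1 and -4.17 for Star. The part of this list in the Cyp17a1 signal was not tested.

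Cyp27a1 encodes the mitochondrial sterol hydroxylase that acts on the cholesterol side chain in bile acid synthesis and also hydroxylates vitamin D. Its signal was 0.545, 0.502 and 0.567 times the 75th percentile in control, 0.594, 0.549 and 0.624 times at 150 mg/kg, 0.638, 0.668 and 0.694 times at 300 mg/kg, and 0.656, 0.761 and 0.728 times at 600 mg/kg. The group mean was higher at each step of dose, while neighbouring groups overlapped except at 300 mg/kg over 150 mg/kg. The log2 difference was 0.41 at 600 mg/kg against control (standard error 0.0726, adjusted p = 0.00212) and 0.31 at 300 mg/kg (standard error 0.0726, adjusted p = 0.0242). All 4 within-slide steps were upward, at 0.14, 0.22, 0.10 and 0.04 on slides 1 to 4. Blocking on slide gave 0.34 (adjusted p = 0.285) at 600 mg/kg and 0.30 (adjusted p = 0.293) at 300 mg/kg. The call at 300 mg/kg was lost without control 1 (0.32, adjusted p = 0.0724), control 2 (0.26, adjusted p = 0.0914), middle 2 (0.31, adjusted p = 0.0505) or middle 3 (0.28, adjusted p = 0.061).

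Cyp2f4 is the rat counterpart of the mouse lung enzyme Cyp2f2, which oxidises naphthalene. Its signal was 0.762, 0.776 and 0.726 times the 75th percentile in control, 0.977, 0.803 and 0.851 times at 150 mg/kg, 0.956, 1.07 and 1.02 times at 300 mg/kg, and 0.763, 0.768 and 0.678 times at 600 mg/kg. The middle-dose animals were above all controls and all high-dose animals, and the high-dose animals overlapped control. Cyp2f4 rose at 300 mg/kg against control (log2 difference 0.43, standard error 0.0795, adjusted p = 0.0114; slide-blocked value 0.67, adjusted p = 0.0834). At 600 mg/kg against control the log2 difference was -0.04 (adjusted p = 0.749). The rise and the return were both seen within slides: the steps were 0.37, 0.25 and 0.33 on slides 1, 2 and 3 and -0.47 on slide 4. The 5 airway club cell markers summed to 0.124 to 0.144 times the 75th percentile in control and 0.147 to 0.159 times at 150 mg/kg. The sums were 0.173 to 0.435 times at 300 mg/kg and 0.191 to 0.214 times at 600 mg/kg. At 300 mg/kg middle 1 alone gave 0.435, and middle 2 and middle 3 gave 0.173 and 0.213 as the sum of these markers. Of the 2 that were tested, Scgb3a2 rose at 300 mg/kg against control (0.60, adjusted p = 0.0173; slide-blocked value 0.63, adjusted p = 0.2) and at 600 mg/kg (0.99, adjusted p = 0.000392; slide-blocked value 1.27, adjusted p = 0.0567). The other tested marker, Scgb1a1, had a log2 difference of 0.01 at 600 mg/kg against control (adjusted p = 0.968, slide-blocked value -0.11, adjusted p = 0.844). Of the markers not tested, Sftpc was well above background on 0 of 12 arrays, Sftpb on 1 and Cldn18 on 2. The part of these markers in the Cyp2f4 signal was not tested.

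In animals given 300 mg/kg, 4 of the 9 genes were called against control: Cyp2f4, Cyp27a1 and Cyp17a1 higher and Cyp2c11 lower. In that comparison 13.0% of all tested genes were called (8.21% higher and 4.81% lower), and the groups did not overlap for 6 of the 9 genes, against 32.8% of all. Blocking on slide in limma left 0 of the 9 and 0.217% of all genes called, with 4 of the 9 at an unadjusted p under 0.05. At 150 mg/kg against control, limma called 0 of the 9, against 0.101% of all genes (0.0337% with slide as a block); the groups did not overlap for 3 of the 9, against 19.8% of all, and 2 of the 9 (Cyp2c11 and Cyp2f4) had an unadjusted p under 0.05. At 300 mg/kg against 150 mg/kg limma also called 0 of 9, against 0.231% of all (0.342% with slide as a block); the groups did not overlap for 1 of the 9, against 18.6% of all, with 2 (Cyp2f4 and Cyp27a1) at an unadjusted p under 0.05. Comparisons against control share the 3 control arrays.

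Between 600 and 300 mg/kg, where 1 middle array shares a slide with the high-dose arrays, 7 of the 9 genes changed, against 22.5% of all tested genes (9.61% higher and 12.9% lower). The same 7 were those whose groups did not overlap, against 36.7% of all. Cyp1b1 rose by 1.44 (standard error 0.182, adjusted p = 0.000572) and Cyp7b1 by 1.22 (standard error 0.112, adjusted p = 0.000106) on the log2 scale. Cyp2c11 fell by 1.18 (adjusted p = 0.00774), Cyp4a1 by 0.48 (adjusted p = 0.00126), Cyp2f4 by 0.47 (adjusted p = 0.00272), Cyp2c23 by 0.43 (adjusted p = 0.00142) and Cyp2e1 by 0.40 (adjusted p = 0.0111). Cyp17a1 and Cyp27a1 had log2 differences of -0.10 (adjusted p = 0.759) and 0.10 (adjusted p = 0.367). When slide was a block, 6 of the 9 were called, against 9.75% of all genes; of the 7, only the call of Cyp2e1 was lost, at -0.38 (adjusted p = 0.0584). The call of Cyp1b1 was lost when its second, mostly dark probe was averaged in (0.92, adjusted p = 0.11).

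**Figure D3:**
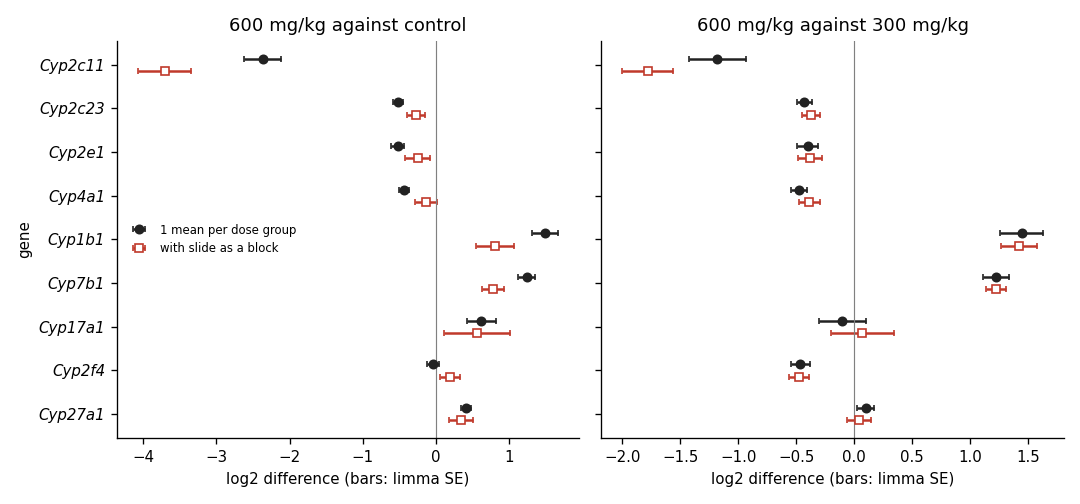
Log2 differences of the 9 genes at 600 mg/kg against control (left panel) and against 300 mg/kg (right panel), with limma standard errors, fitted with 1 mean per dose group (filled circles) and with slide as a block (open squares). Against 300 mg/kg both fits give nearly the same values except for Cyp2c11 (-1.18 and -1.78), whereas against control several differ, such as Cyp4a1 (-0.44 and -0.13).

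The whole family on the array gave the setting for these 9 genes. Probes for 69 P450 genes were found, of which 34 were tested; 25 were well above background on 0 of 12 arrays, among them the steroidogenic Cyp11a1 and Cyp19a1 and the drug-metabolising Cyp3a2 and Cyp1a2. Of the 25 other P450 genes tested, 3 rose and 6 fell at 600 mg/kg against control. In that comparison 34.8% of all tested genes were called (18.0% higher and 16.8% lower). The median log2 difference of the 25 was -0.03, against -0.002 for all genes. Cyp24a1, which degrades vitamin D, rose by 1.87 on the log2 scale (adjusted p = 0.0111), although at 300 mg/kg against control it fell by 1.82 (adjusted p = 0.031); the slide-blocked values were 3.70 (adjusted p = 0.0588) at 600 mg/kg and -1.13 (adjusted p = 0.385) at 300 mg/kg. Cyp51, the demethylase of cholesterol synthesis, rose by 0.44 (adjusted p = 0.00308), and Cyp4f17 by 0.21 (adjusted p = 0.0482). The 3 with the lowest log2 differences were Cyp2d2 at -0.43 (adjusted p = 0.00443), Cyp2d4 at -0.36 (adjusted p = 0.00245) and Cyp26a1, which degrades retinoic acid, at -0.36 (adjusted p = 0.016). The slide-blocked limma fit called 0 of these 25 at 600 mg/kg against control, against 2.81% of all genes. Of the 25, 6 had an unadjusted p under 0.05 in that fit. At 600 against 300 mg/kg 8 of the 25 were called (1 higher, 7 lower). The share of all genes there was 22.5% (9.61% higher and 12.9% lower). With the block 6 of the 25 were called at 600 against 300 mg/kg, against 9.75% of all genes. The block moved, at 600 mg/kg against control, Cyp26a1 to -0.07 (adjusted p = 0.85), Cyp4f17 to 0.08 (adjusted p = 0.838) and Cyp2d4 to -0.56 (adjusted p = 0.0581).

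**Figure D4:**
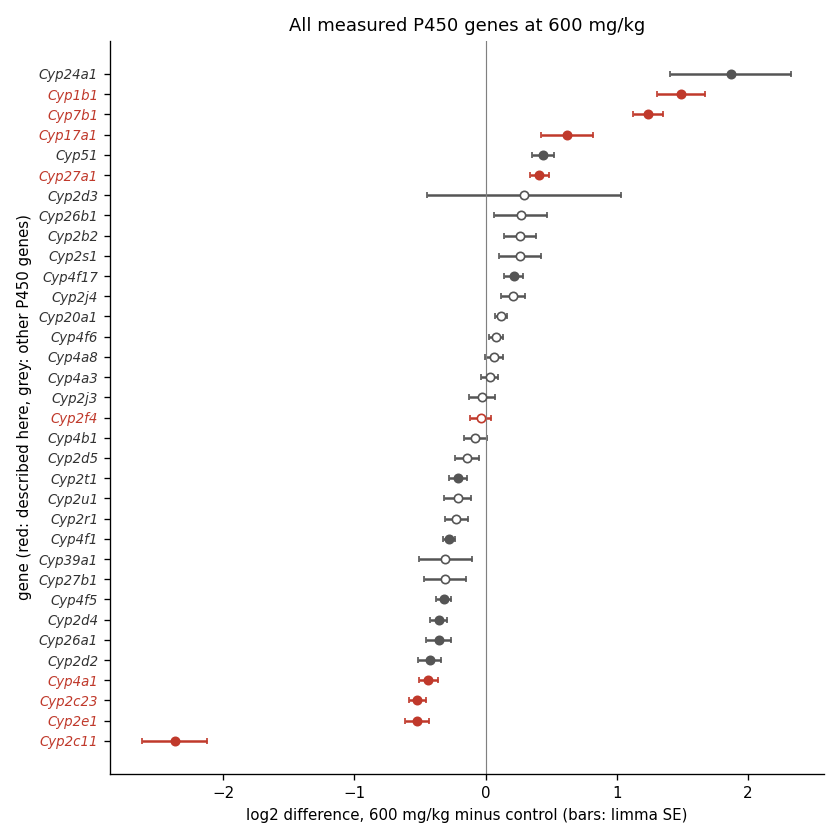
Log2 difference at 600 mg/kg minus control for the 9 genes described (red) and the 25 other P450 genes tested (grey), ordered by size, with limma standard errors; filled points were called at an adjusted p under 0.05. Cyp2c11 has the lowest value (-2.37) and only Cyp24a1 (1.87) lies above Cyp1b1 (1.49) and Cyp7b1 (1.24).

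Counts over gene lists stand against the same 34.8% of all tested genes called at 600 mg/kg against control. Of the 8 redox partners, which pass electrons to P450s, 1 rose and 2 fell at 600 mg/kg against control, with a median log2 difference of -0.06. Fdxr, the reductase of the mitochondrial chain that serves Cyp27a1, rose by 0.40 (adjusted p = 0.000736). Cyb5r3 fell by 0.18 (adjusted p = 0.0153) and Pgrmc1 by 0.14 (adjusted p = 0.0351). Por, the partner of the microsomal enzymes, had a log2 difference of -0.11 (adjusted p = 0.125). The slide-blocked limma fit called 0 of the 8, with 2 at an unadjusted p under 0.05; Pgrmc1 turned to 0.05 (adjusted p = 0.783) and Cyb5r3 moved to -0.37 (adjusted p = 0.1).

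Among the other arachidonate P450s and epoxide hydrolases, 9 were tested, and 1 rose while 3 fell. Ephx1, the microsomal epoxide hydrolase, rose by 0.46 (adjusted p = 0.000445), whereas Ephx2, the soluble hydrolase that removes the epoxides made by Cyp2c23, fell by 0.29 (adjusted p = 0.00568). Cyp4f5 fell by 0.32 (adjusted p = 0.0023) and Cyp4f1 by 0.28 (adjusted p = 0.00125). Of 5 tested enzymes of sterol and bile acid handling, 2 rose, Cyp51 and Hsd3b7 (0.22, adjusted p = 0.0144). The slide-blocked limma fit called 0 of the 9 arachidonate genes, 3 of which had an unadjusted p under 0.05, and 0 of the 5 sterol genes, of which 0 did. It moved Ephx2 to -0.17 (adjusted p = 0.511) and Cyp4f5 to -0.48 (adjusted p = 0.102).

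Of 14 tested genes of steroid hormone synthesis and conversion, 3 rose and 3 fell; the slide-blocked limma fit called 0, with 6 at an unadjusted p under 0.05. Srd5a1, which reduces testosterone, rose by 0.51 (adjusted p = 4.22e-05) and Hsd3b1 by 0.67 (adjusted p = 0.000946). The remaining one, Akr1c14, a hydroxysteroid dehydrogenase, was at least 1.32-fold higher; it was well above background on 3 high, 2 middle, 1 low and 0 control arrays and passed the filter through the high-dose group alone, so its place in the count gives no support. Hsd17b2 fell by 0.90 (adjusted p = 0.0019), Hsd17b4 by 0.43 (adjusted p = 0.000186) and Hsd17b1 by 0.42 (adjusted p = 0.00652), all of them hydroxysteroid dehydrogenases. Blocking on slide moved Hsd17b2 to -0.10 (adjusted p = 0.782), Hsd17b1 to -0.72 (adjusted p = 0.115) and Hsd3b1 to 0.37 (adjusted p = 0.289). Of the 5 tested vitamin D and retinoid P450s, 1 rose (Cyp24a1) and 1 fell (Cyp26a1).

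Of the genes that, like Cyp1b1, are induced through the aryl hydrocarbon receptor, 5 were tested, and 3 rose at 600 mg/kg against control while 0 fell, with a median of 0.64. Nqo1, a quinone reductase, rose by 2.20 (adjusted p = 6.09e-07), Ugt1a6, a glucuronosyltransferase, by 0.87 (adjusted p = 0.000537), and Aldh3a1, an aldehyde dehydrogenase, by 0.64 (adjusted p = 0.00134). Tiparp and Nfe2l2, the others tested, had log2 differences of -0.04 (adjusted p = 0.737) and 0.18 (adjusted p = 0.0683). Nqo1 and Ugt1a6 are also targets of the oxidant sensor Nfe2l2. Nqo1 had risen by 0.59 at 150 mg/kg (adjusted p = 0.0445, slide-blocked value 0.50, adjusted p = 0.362). Ugt1a6 had risen by 1.02 at that dose (adjusted p = 0.015, slide-blocked value 1.09, adjusted p = 0.167). Its value at 300 mg/kg against control was 0.998 (adjusted p = 0.00231, slide-blocked value 1.06, adjusted p = 0.113). Cyp1b1 was not called at these doses. Cyp1a1, the gene most used to read that receptor, was well above background on 6 of 12 arrays and was not tested. Blocking on slide left 1 of the 5 called, Nqo1 (2.25, adjusted p = 0.00951), and moved Aldh3a1 to 0.07 (adjusted p = 0.843).

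Of 15 tested targets of PPARA, 3 rose and 6 fell, with a median of -0.13. Angptl4, an inhibitor of lipoprotein lipase, rose by 2.38 (adjusted p = 1.52e-05), Cpt1a by 0.26 (adjusted p = 0.00374) and Slc25a20 by 0.14 (adjusted p = 0.024; slide-blocked value 0.26, adjusted p = 0.156); the last pair carry fatty acids into mitochondria. The peroxisomal oxidation gene Ehhadh fell by 0.57 (adjusted p = 0.000228; slide-blocked value -0.35, adjusted p = 0.21). Of the 15, only Angptl4 was called in the slide-blocked fit. Of 16 tested receptors and factors that govern P450 genes, 0 rose and 4 fell, among them Hnf4a by 0.46 (adjusted p = 0.000146), Rxra by 0.43 (adjusted p = 0.00746; slide-blocked value -0.17, adjusted p = 0.671) and the growth hormone receptor Ghr by 0.36 (adjusted p = 0.00063). Among these 16, only Hnf4a was called in the slide-blocked fit (-0.54, adjusted p = 0.0465), and Ppara had a log2 difference of -0.06 (adjusted p = 0.501).

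For each gene the pair of named genes with the highest Pearson correlation over the 12 arrays, out of 11011 compared, was found as a description; the arrays span all 4 doses, so genes that change at the same dose correlate. For Cyp2c11 these were Slc22a2, an organic cation transporter (r = 0.977), and Iah1 (r = 0.966). For Cyp2c23 they were Hibadh (0.981) and St6galnac3 (0.979), for Cyp2e1 Pigr (0.966) and Hrg (0.960), and for Cyp4a1 Dnah7 (0.985) and Epb41l3 (0.982). Cyp1b1 was most like Pvr and Tnfrsf12a (0.977 each), and Cyp7b1 most like Timp1, an inhibitor of metalloproteinases (0.988), and Nop56 (0.983). The values were lower for Cyp2f4, with Nudt6 (0.960) and Map3k4 (0.959), for Cyp27a1, with Rhcg (0.958) and Slc6a17 (0.951), and for Cyp17a1, with Stim1 (0.897) and Actr6 (0.885).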

How the data were processed

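The scanner software was Agilent Feature Extraction 9.1.3.1, run on 1-colour arrays, per the file headers. The processed, mean and background signals are linear intensities, per the file headers, and the deposited columns that mark spots as well above background, saturated or outlying are flags. The deposited value table is a linear ratio of signal to a constant near the median of each array; its column medians lay between 1.003 and 1.005, and 0 of its 12 columns were left unused. Scale and direction are thereby known (linear, higher meaning more signal).

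Processed signals were put on the log2 scale, spots of the same probe were averaged without outlier spots, and the 75th percentile of each array was subtracted. Probes were named through GRCr8 RefSeq gene tables (20977 of 41012 had no match), and the brightest probe over all arrays stood for a gene. A gene was tested (20760 were) if some dose group had it well above background in all of its 3 animals. Dose groups were tested in limma (version 3.58.1, R version 4.3.3) with a mean for each group over 12 arrays, 8 residual degrees of freedom (5 with slide as a block), two-sided tests and Benjamini-Hochberg adjustment over all tested genes in each comparison. The fit was tested on simulated data. Standard errors of log2 differences come from limma; each group has n = 3 animals, which limits the precision. Changes described as at least a given fold are taken against the lowest signal well above background. Promoter sequences and motifs were read from a RefSeq table; protein sequences were not used here.

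The genes, the lists and the alternatives were chosen with earlier results of these data known. Named were all 9 genes with every probe, and from each list the 3 highest and 3 lowest log2 differences among genes called at 600 mg/kg against control; members of lists named beyond that, and the values of relatives such as Cyp4a3 and Por, were chosen after their values were seen. Some genes that this rule picks are not reported here. The list of arachidonate enzymes held Cyp4a1 under an older name, and it was taken out of that list. Samples with the same replicate number did not deviate together: the correlations of their deviations from group means ran from -0.225 to 0.116, and 1 of 18 was over 0.1, so the numbers were not treated as pairs.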

Additional observations from a re-analysis of the deposited data

How the results depend on the processing

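With quantile or median scaling, the authors' value table, every probe on its own or a filter asking for detection on all 12 arrays, the counts stayed at 8 genes called at 600 mg/kg against control, 4 at 300 mg/kg against control and 7 at 600 against 300 mg/kg, and the counts at 150 mg/kg against control and at 300 against 150 mg/kg were 0 under every alternative run. Scan day as a block gave 8, 3 and 7, and normexp background correction 7, 3 and 7. The replicate number as a block gave 8, 4 and 7 as well. No paired reading is drawn from it, since the numbers do not pair the animals. At 300 mg/kg against control the count fell to 2 with no filter on dim probes, to 1 with only the compared groups in the fit and to 0 with slide as a block, and it ran from 1 (without control 2) through 2 (without control 1, middle 2 or middle 3) to 3 when arrays were left out in turn. At 600 mg/kg against control it was 2 with slide as a block and 7 to 8 with arrays left out; at 600 against 300 mg/kg it was 3 on slide 4 alone (an alternative added after the data were seen, which assumes that the lone middle array varies like the other groups) and 7 in each leave-one-out fit. The fit without the filter tests more genes, the others have fewer samples or fewer residual degrees of freedom, and the cause of each lost call was not tested otherwise. Of single values, Cyp17a1 was the least stable: normexp background correction shrank its log2 difference at 600 mg/kg to 0.20 (adjusted p = 0.0849) and those of the dim Cyp1b1 and Cyp7b1 to 0.96 and 0.74, both still called. With no filter on dim probes the Cyp17a1 calls at 600 and at 300 mg/kg against control were lost too. Averaging the probes of a gene changed only the Cyp1b1 call at 600 against 300 mg/kg. No called value of the 9 genes changed sign under any alternative run; of the other genes named, Pgrmc1 did with slide as a block (0.05, against -0.14 without it).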
